A study of Ovis aries and Mus musculus with 20 samples.

Results

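The mitochondrial carrier genes examined here were the autosomal protein-coding mouse genes whose symbol is Slc25a followed by a number. The GENCODE annotation of GRCm39 holds 47 such genes, of which 43 lie on autosomes and were followed, among 20621 autosomal protein-coding genes in all. The other 4, Slc25a5, Slc25a14, Slc25a43 and Slc25a53, lie on chromosome X, which the index used here does not cover. They include a main adenine nucleotide carrier of many tissues, Slc25a5. The study compared the folding of the genome in fat across mammals by Hi-C, a method that ligates and sequences DNA ends lying close together in the nucleus. The libraries used here were 2 pools of iWAT, the inguinal white fat pad under the skin, each made from 10 female Kunming mice that were 32 weeks old, with no treatment and no engineered allele named. Kunming is an outbred stock, whereas the reference genome is that of an inbred strain. Nuclei came from the layer of crosslinked tissue that contained adipocytes, so each value is an average over every cell type in that layer, and more cells of a type cannot be told apart from a different folding within it. No RNA of these mice was analysed here, so the tissue could not be checked against the expression of its markers.

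The inner membrane of the mitochondrion is closed to most charged molecules. Most, though not all, SLC25 proteins act there and carry nucleotides, keto acids, amino acids, phosphate, carnitine esters, cofactors or iron across it. All members share a fold built from 3 repeats, and most exchange a molecule of the matrix for one of the cytosol. In fat they export citrate for fatty acid synthesis and import acylcarnitines for oxidation, and the related uncoupling protein Ucp1 makes heat in brown and beige fat. Some members are used almost everywhere, whereas others are known mainly from a single tissue, such as male germ cells, liver, brain or red cell precursors.

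The readout was the A-B index, a score without a unit for every 20-kb bin of every autosome in each pool. It is the contact of a bin with the active A regions of its chromosome minus its contact with the inactive B regions, so values above 0 stand for A and values below 0 for B. Each gene was read at the bin that holds its annotated start. Because A and B regions were set chromosome by chromosome, an index compares best within a chromosome, and its place among the bins of its own chromosome is given where it matters. The number of contacts behind a bin is not given in the files, so the error of a value is the SD between the pools (n = 2). With a single condition in 2 pools no comparison could be tested, and all differences below are descriptions. Over all 123133 bins, 96.4% had the same sign in both pools.

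Every member whose bin carried a signal lay in the A compartment. Of the 43 members, 42 were above 0 in both pools, none changed sign between the pools, and 1, Slc25a37, was listed below 0 in both. Among all autosomal protein-coding genes 75.6% were above 0 in both pools and 21.7% were below 0 in both. The value of Slc25a37 was not a measurement of B, as described below, and without bins of that kind the counts were 42 of 42 members against 75.9% of 20407 genes. The median index of the 43 members was 3.69, against 3.26 over all genes, and 25 members lay above the median of all genes. The lower quartile set the members apart more than the median did: it was 2.84 for the members and 0.275 for all genes, and the upper quartiles were 5.05 and 4.66. Part of the low tail of all genes is made of chemoreceptor genes (olfactory, vomeronasal and trace amine receptors), of which 9.92% of 1553 were above 0 in both pools. When these genes and the bins without signal were left out, the lower quartile of the remaining 18912 genes was 1.30. For the 42 members with signal it was 2.87. Of those 18912 genes 81.4% were above 0 in both pools, and their median was 3.52. At like GC content the gap was narrower. Of 10147 genes with signal whose bin had a GC content of 43.2% to 50.2%, the middle range of the members, 91.1% were above 0 in both pools and the median index was 3.82, against 4.06 for the 20 members in that range.

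**Figure D1:**
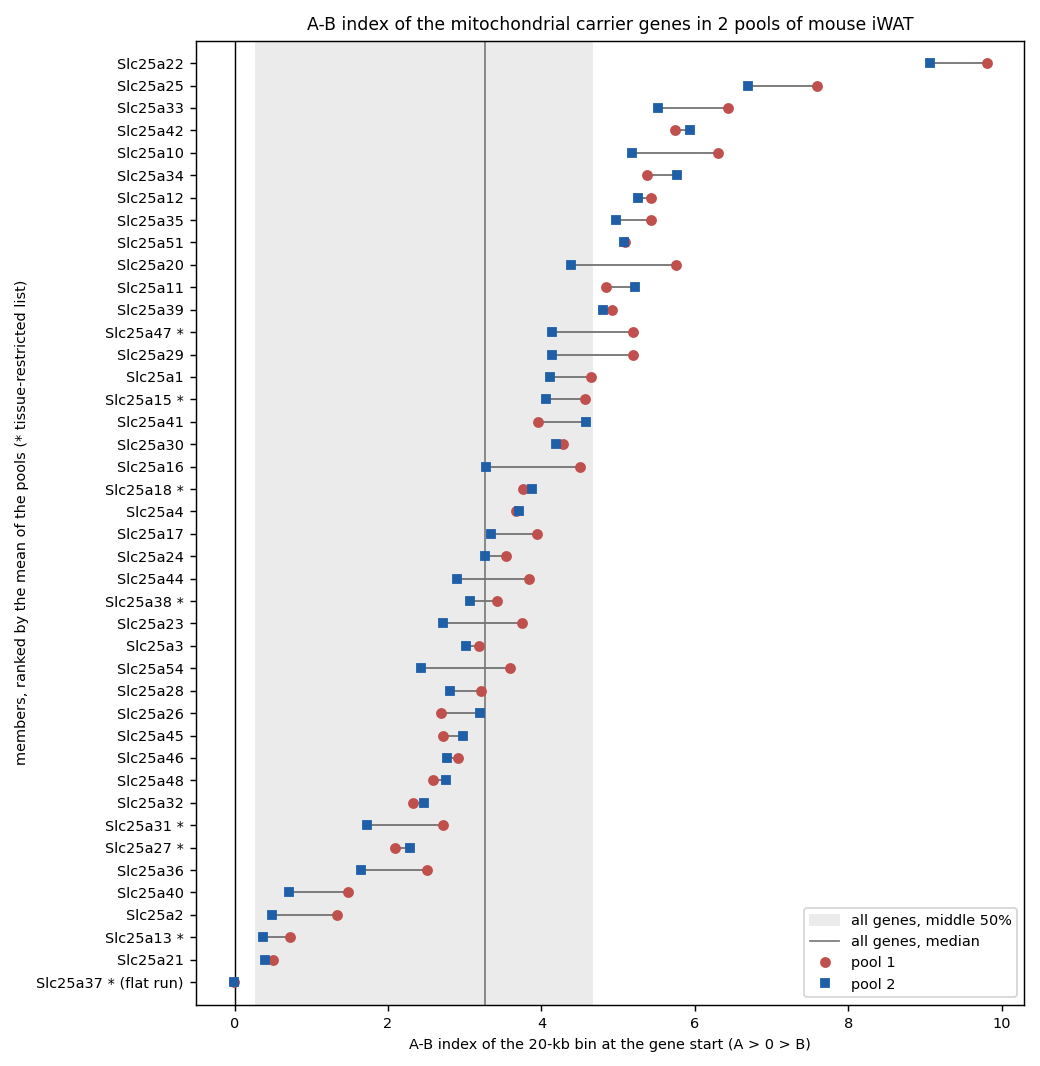
A-B index (horizontal axis, no unit) of the start bin of the mitochondrial carrier genes (1 of the 43 is not drawn), ranked by the mean of the pools; circles are pool 1, squares pool 2, and the grey band and line are the middle 50% and the median (3.26) of all genes. All members drawn but Slc25a37 lie to the right of 0 in both pools, with Slc25a22 farthest at 9.44.

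The pools agreed closely on the members. Pool 1 was the higher in 31 of 43 members, as it was in 70.9% of all genes, and the median distance between the pools was 0.399 (0.499 over all genes). The widest distance was 1.37, at Slc25a20. Across the 42 members with signal, Pearson's r between the pools was 0.95 and Spearman's rho 0.94; the points share libraries and, in places, chromosomes. For most members the place in the order was loose. In 35 of 42 steps down the ranking the pool values of a gene and the next one overlapped, and the 7 steps without overlap included those below Slc25a22, Slc25a25 and Slc25a36. The pools shared 4 of their highest 6 members and 5 of their lowest 6, and a member's rank moved by at most 9 places, again at Slc25a20.

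At the top stood Slc25a22, a carrier that brings glutamate into the matrix. It starts on chromosome 7 (141009649 to 141017832, minus strand, GRCm39) and had an index of 9.81 in pool 1 and 9.07 in pool 2. That mean of 9.44 lay at percentile 99.9 of all genes and at percentile 99.7 of the bins of its chromosome. Every one of the 51 bins within 500 kb of its start was above 0, with means between 3.62 and 9.49, and 44 protein-coding genes, itself included, start within the surrounding Mb. Slc25a25, a calcium-regulated exchanger of ATP-Mg for phosphate, followed with 7.60 in pool 1 and 6.69 in pool 2, inside an A stretch of 11980 kb without interruption. Both stood above every other member in each pool. Among the bins of its own chromosome, however, Slc25a25 lay at percentile 96.9. On their chromosomes Slc25a20 (98.8), Slc25a42 (98.6) and Slc25a10 (97.3) stood higher. Slc25a33, a carrier of pyrimidine nucleotides, had 6.44 and 5.52, Slc25a42, which carries coenzyme A, 5.74 and 5.93, and Slc25a10, the dicarboxylate carrier, 6.30 and 5.18. The pool values of Slc25a33 and Slc25a10 spanned those of Slc25a42. On chromosome 11, Slc25a10, Slc25a35, Slc25a11 and Slc25a39 all had a mean of at least 4.86.

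None of the tissue-restricted members with signal lay in B. The list held 8 genes: Slc25a31, an ADP/ATP carrier of male germ cells, Slc25a18, a glutamate carrier of brain, Slc25a27, an uncoupling protein relative of neurons, Slc25a37 and Slc25a38, which serve iron and glycine in red cell precursors, Slc25a47, a carrier of liver, and Slc25a13 and Slc25a15, which serve the urea cycle. Leaving Slc25a37 aside, all 7 were above 0 in both pools, with means from 0.543 to 4.66 and a median of 3.25. That median was close to the 3.29 of all genes with signal, of which 75.9% were above 0 in both pools, and lower than the 3.89 of the 35 members not on the list. Slc25a47 was highest, with 5.19 in pool 1 and 4.14 in pool 2. It shares its bin with Slc25a29, a carrier of basic amino acids, and the annotated starts of these divergent genes lie 0.229 kb apart, so the index cannot separate them. The canonical transcript of Slc25a47 starts 15.0 kb farther on. Slc25a15, which exchanges ornithine for citrulline, had 4.57 and 4.06, Slc25a18 had 3.76 and 3.87, and Slc25a38 had 3.43 and 3.07. Slc25a31 had 2.72 and 1.73, and Slc25a27 had 2.09 and 2.29. These values were below the median of all genes but above 0 in each pool. By the mean of the pools, 3 of the 8 listed genes were above that median. Only Slc25a13 came near 0, with 0.716 and 0.371.

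For comparison, genes known from other tissues were not uniformly in A in these libraries. Of 4 neuron markers 2 were below 0 in both pools (Syt1 at -4.72 and -4.07, Snap25 at -1.55 and -2.00), and the other 2, Rbfox3 and Tubb3, were above 0. Of 3 skeletal muscle markers, Myh4 of fast fibres was below 0 (-2.66 and -2.10) and Ckm and Acta1 were above, with means of 9.11 and 4.20. Of 4 liver markers, Cps1, the enzyme that opens the urea cycle, was below 0 (-2.16 and -1.40), Apoa1 and Ttr were above, with means of 3.89 and 0.351, and Alb had opposite signs in the pools. The 4 germ cell markers were all above 0, as were all 8 adipocyte markers, whose means ran from 2.73 (Adipoq) to 7.96 (Lipe). Macrophage genes were split, with Adgre1 and Ptprc below 0 and Cd68 and Csf1r above. An index is not expression, and these marker genes do not measure the share of any cell type.

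Slc25a37, known as mitoferrin 1, imports iron into the mitochondria of red cell precursors, and it was the only member listed below 0. Its start bin read -0.00983 in pool 1 and -0.0114 in pool 2. The same value, between -0.00987 and -0.00973 in pool 1 and between -0.0115 and -0.0113 in pool 2, filled 21 adjacent bins, chr14:69500001-69920000, whereas neighbouring bins with signal differed by a median of 0.377 in pool 1. Such flat stretches near 0 were also what the files hold where the reference sequence is unknown: of 3200 bins made only of unknown bases, 3194 were flat in this way. The stretch at Slc25a37 has no unknown base. It lies inside a tandem duplication of the reference. Positions 69491734 to 69709985 of chromosome 14 aligned to 69709984 to 69928260 with 218250 matching bases of 218277, and the 21 flat bins are exactly the bins that fall wholly within these 2 copies. Pairs of reads whose mapping quality fell short of 30 had been dropped before the maps were made, and that score is low for reads that fit several places. Whether that filter made the flat stretch was not tested. Of the 43.3 kb of Slc25a37, 30.8 kb with its start lie in the first copy.

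The 30 bases just before the annotated start of Slc25a37 show the duplication, with CpG dinucleotides in capitals here and in the sequences further on. The first line is chr14:69522562-69522591 and the second chr14:69740812-69740841 of GRCm39, both on the minus strand, 218.25 kb apart. Over the 250 bases before the start the copies differed at 0 positions.
Slc25a37: CGgCGcaccaatagCGCGgccaCGgcCGgc
Slc25a37, other copy: CGgCGcaccaatagCGCGgccaCGgcCGgc

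Around the flat stretch the index was above 0. The last bin before it, on the side where Slc25a37 ends, read 4.78 in pool 1 and 2.62 in pool 2, and the first bin after it 4.89 and 4.20. Averaged over the whole gene, which reaches out of the stretch, Slc25a37 had a mean index of 1.58, but this average takes in flat bins. The bins of the gene outside the stretch had means of 3.70 and 2.62 over the pools. The stretch holds the starts of 6 other protein-coding genes (Synb, Entpd4, Gm16867, Gm27179, Entpd4b and Loxl2), and over the genome 214 genes, 1.04%, start in flat bins. The other mitoferrin, Slc25a28, of many tissues, had signal and read 3.21 and 2.81.

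**Figure D2:**
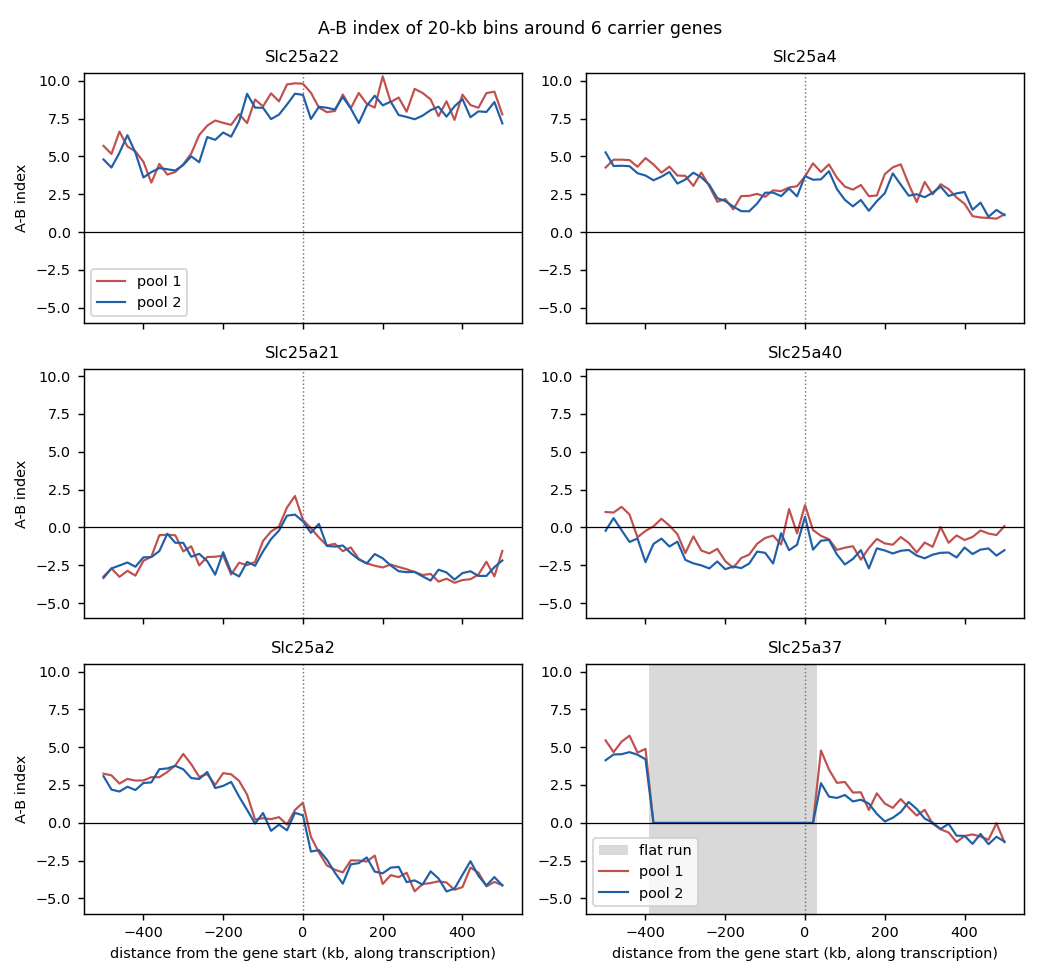
A-B index of 20-kb bins (vertical axis, no unit) in pool 1 (red) and pool 2 (blue) against the distance from the start of 6 carrier genes in kb, drawn in the direction of transcription; grey marks flat bins. Slc25a22 lies in a broad A region, Slc25a21, Slc25a40 and Slc25a2 on narrow rises or at an edge next to B, and the start of Slc25a37 in 21 flat bins.

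The lowest members with a signal stood on small rises within B or at its edge. Slc25a21, which carries oxodicarboxylates such as 2-oxoadipate, starts on chromosome 12 at the high end of 56759419 to 57244257 (minus strand). Its start bin read 0.502 in pool 1 and 0.400 in pool 2, in an A stretch of 60 kb. The gene is 485 kb long and runs from this rise into B. Of its 26 bins 1 was above 0 in pool 1 and 2 in pool 2, and its mean over the gene was -2.30 in pool 1 and -2.22 in pool 2. The bin upstream of the start, which holds the starts of Mipol1 and Prps1l3, was higher, at 2.08 and 0.847. Thus the head of Slc25a21 was in A and most of its body in B in both pools.

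Slc25a40, a glutathione carrier on chromosome 5 (8472804 to 8504839, plus strand), stood on a single bin above 0, with 1.47 in pool 1 and 0.704 in pool 2. The bins on either side had means of -0.769 and -0.821, and only 4 of the 51 bins within 500 kb were above 0. Its start lies 8 bases from that of Dbf4, a gene of the opposite strand that activates a kinase of DNA replication, so this bin holds both starts. Averaged over 100 kb, Slc25a40 was at 0.313 in pool 1 and -0.858 in pool 2, a pair of opposite signs. Slc25a2, an ornithine carrier without introns in its coding part, lies on chromosome 18 between clusters of protocadherin genes, which encode neuronal adhesion proteins. It read 1.33 and 0.490. The 22 Pcdhb genes on one side lay deep in B, with a median of -3.23, and the 22 Pcdhg genes on the other side close to 0, with a median of 0.0791. Taf7, which encodes a subunit of the basal transcription machinery, shares the bin of Slc25a2. Over 100 kb around its start Slc25a2 was below 0 in both pools, at -0.166 and -0.612.

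Slc25a13, the aspartate/glutamate carrier of liver, is 177 kb long and stood close to 0 over its whole length. Its 9 bins had means between -0.0599 and 1.62, and 21 of 51 bins within 500 kb of its start were above 0. Slc25a36, a pyrimidine nucleotide carrier, read 2.50 and 1.65 at its start, and the index fell below 0 at 60 kb upstream. Slc25a32, which carries folate or FAD, and Slc25a46, a relative in the outer membrane that acts in fission and lipid supply, had higher starts (2.32 and 2.46, 2.91 and 2.77) but also had a B bin 60 kb away. Along its 4 bins Slc25a46 went from 2.84 to -0.996. Slc25a3, the phosphate carrier that ATP synthesis depends on, read 3.19 and 3.02 in an A stretch of only 300 kb, and 15 of the 51 bins around it were above 0.

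Start bins mostly stood above their surroundings. In 38 of 42 members with signal the start bin was higher than the mean of the bins within 500 kb, against 69.9% of all genes with signal. Set against nearer bins only, the second to the fifth on each side, it was higher in 32 of 42, or 76.2% against 64.2%. Without chemoreceptor genes the latter share was 66.9%. All 42 members are in A, whereas these shares over all genes include genes in B, so the sets are unlike. For 8 of the 42 members in A that mean was below 0 (Slc25a3, Slc25a46, Slc25a32, Slc25a36, Slc25a40, Slc25a2, Slc25a13 and Slc25a21), whereas it was below 0 for 9.11% of all genes in A. At the other extreme, 22 of the 42 members, 52.4%, had every bin with signal within 500 kb above 0, against 41.4% of all genes with signal. The latter share is taken over genes in B too, which cannot meet this condition. In number, 8445 genes met it, while 15491 genes with signal were in A in both pools, so the members did not stand out from genes in A. The A stretches around the members had a median length of 2820 kb, the same as for all genes in A, and 3 members started within 40 kb of a B bin, or 7.14% against 7.82% of all genes in A.

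**Figure D3:**
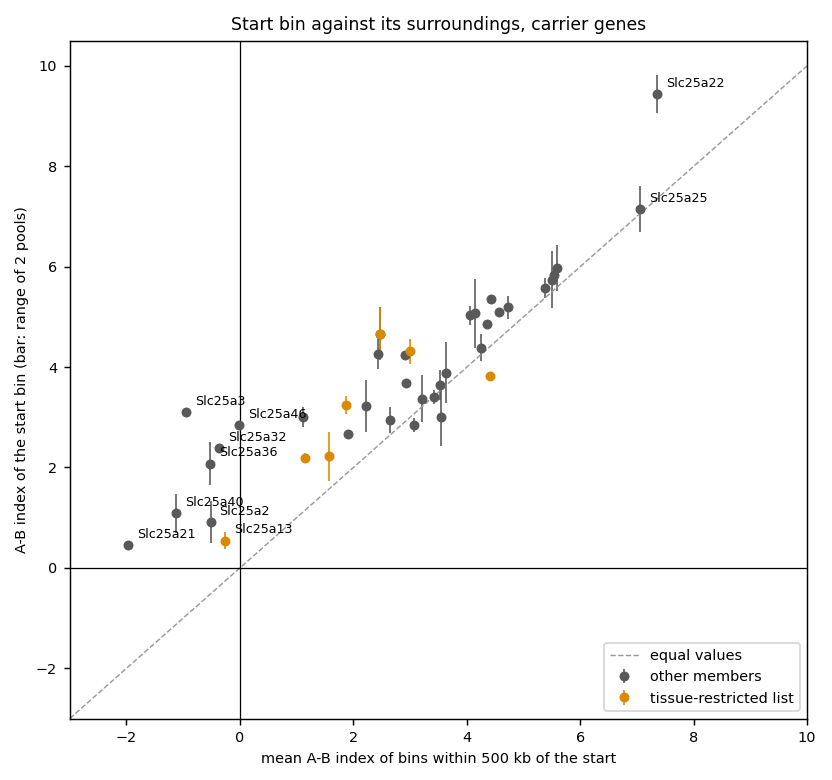
A-B index of the start bin (vertical axis, mean of 2 pools with bars for their range) against the mean index of all bins with signal within 500 kb (horizontal axis) for the carrier genes with signal (1 of 42 is not drawn), with the tissue-restricted list in orange and a dashed line of equal values. Most start bins lie above the line, and 8 members combine a start in A with surroundings below 0 (Slc25a46 only just, at -0.00781).

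By substrate, each group with more than 2 members spread widely. The 9 amino acid carriers ran from 0.543 (Slc25a13) to 9.44 (Slc25a22) with a median of 3.81, and the 9 carriers of nucleotides and cofactors from 2.08 (Slc25a36) to 5.98 (Slc25a33) with a median of 3.89. The latter included Slc25a51, which imports NAD, at 5.09 and 5.08, Slc25a16 and Slc25a17, for coenzyme A and related cofactors, at means of 3.89 and 3.64, and Slc25a26, which carries S-adenosylmethionine, at 2.95. Among the amino acid carriers Slc25a44, which imports branched-chain amino acids and is used by brown fat, read 3.84 and 2.90. Of 4 carriers of di- and tricarboxylates and keto acids, 3 were high: Slc25a10 at 5.74, Slc25a11, the oxoglutarate carrier of the malate-aspartate shuttle, at 5.03, and Slc25a1, which exports citrate for lipid synthesis, at 4.38. The remaining one was Slc25a21. Slc25a20, which exchanges acylcarnitines for carnitine and so admits fatty acids for oxidation, had 5.75 in pool 1 and 4.38 in pool 2. The 7 members of other or less established function were Slc25a34, Slc25a35, Slc25a45, Slc25a46, Slc25a47, Slc25a48 and Slc25a54, and they ran from 2.67 (Slc25a48) to 5.57 (Slc25a34).

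Carriers of similar substrates often stood far apart, with the difference of the same sign in each pool. Slc25a12, the aspartate/glutamate carrier of brain and muscle, exceeded its paralog Slc25a13 by 4.71 in pool 1 and 4.89 in pool 2. The glutamate carrier Slc25a22 exceeded Slc25a18 by 6.05 and 5.20, and the ornithine carrier Slc25a15 exceeded Slc25a2 by 3.24 and 3.57. Slc25a39 exceeded Slc25a40, the other glutathione carrier, by 3.45 and 4.09, and Slc25a33 exceeded Slc25a36 by 3.94 and 3.87. Slc25a30 exceeded Slc25a27, both uncoupling protein relatives, by 2.19 and 1.91. These pairs lie on different chromosomes, on which the index is set separately, and they were chosen after their values were seen. The sizes of the differences therefore do not rank the pairs. Among the bins of their own chromosomes Slc25a22 and Slc25a18 lay at percentiles 99.7 and 85.4. Slc25a15 and Slc25a2 lay farther apart, at 86.3 and 64.4.

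The adenine nucleotide carriers on autosomes were Slc25a4, the form of heart and muscle, and Slc25a31. Slc25a4 starts on chromosome 8 (46656538 to 46664325, minus strand) and had 3.67 in pool 1 and 3.70 in pool 2, and Slc25a31 starts on chromosome 3 (40663285 to 40680527, plus strand) and was lower by 0.957 in pool 1 and by 1.98 in pool 2. Within their own chromosomes they stood closer together, at percentiles 81.9 and 77.4 of the bins. The 250 bases before the start hold 9 CpG dinucleotides in Slc25a4 and 17 in Slc25a31, and only 4 in Slc25a21, which had the smallest index of the members with signal. The 3 sequences are chr8:46664326-46664575 (minus strand), chr3:40663035-40663284 (plus strand) and chr12:57244258-57244507 (minus strand) of GRCm39, none of which overlaps an annotated exon.
Slc25a4: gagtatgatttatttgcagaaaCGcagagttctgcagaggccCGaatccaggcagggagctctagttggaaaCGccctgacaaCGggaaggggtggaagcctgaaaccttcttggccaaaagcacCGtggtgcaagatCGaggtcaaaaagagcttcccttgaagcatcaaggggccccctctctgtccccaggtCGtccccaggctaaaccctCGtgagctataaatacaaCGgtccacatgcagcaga
Slc25a31: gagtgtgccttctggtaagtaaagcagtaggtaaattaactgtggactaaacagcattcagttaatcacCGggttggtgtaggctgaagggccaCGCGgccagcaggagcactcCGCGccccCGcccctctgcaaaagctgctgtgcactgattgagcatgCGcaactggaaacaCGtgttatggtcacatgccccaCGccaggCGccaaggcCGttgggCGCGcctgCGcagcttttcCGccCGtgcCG
Slc25a21: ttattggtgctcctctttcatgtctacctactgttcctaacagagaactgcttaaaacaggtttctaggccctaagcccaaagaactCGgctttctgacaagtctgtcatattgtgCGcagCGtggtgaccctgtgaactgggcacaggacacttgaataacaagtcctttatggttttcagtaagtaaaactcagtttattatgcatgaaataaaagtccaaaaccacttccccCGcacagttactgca

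CpG content before the start did not follow the index among the members. The count of CpG dinucleotides in these 250 bases ran from 1 (Slc25a34, the member at rank 7) to 37 (Slc25a40, at rank 39), with a median of 10 in the members and 8 in all genes. The bases were those before the start of the canonical transcript, whereas the index was read at the annotated gene start. Among the members these starts lie farthest apart in Slc25a3 (15.8 kb) and Slc25a47 (15.0 kb). Spearman's rho of the count with the index was 0.022 over the 42 members with signal and 0.42 over all genes. With the GC content of the whole 20-kb bin rho was 0.59 over the members and 0.65 over all genes, and with the number of gene starts in the surrounding Mb 0.52 and 0.31. Genes that share bins and regions are not independent points. In a search of both strands, the letters TATAAA occurred before 3 members (Slc25a35, Slc25a4 and Slc25a45), or 6.98% against 12.0% of all genes, and TCCCGC, the core of an E2F site, before 6, or 14.0% against 18.7%. AAGGTCA, the half-site of estrogen-related receptors, occurred before Slc25a34 alone, 2.33% against 3.93% of all genes. GCGCATGCG, the core of an NRF1 site, occurred before none, against 1.44%. Such matches are letters in a window and not binding sites.

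Of the 4 ATP-Mg/phosphate exchangers, which adjust the adenine nucleotide pool of the matrix, 3 started close to another member. Slc25a41 and Slc25a23 start 18.3 kb apart on chromosome 17 and share a topologically associating domain (TAD), a stretch whose loci contact each other more than loci outside, of 640 kb. Slc25a41 had 3.95 in pool 1 and 4.58 in pool 2, and Slc25a23 had 3.75 and 2.71. Their difference was 0.204 in pool 1 and 1.86 in pool 2, so it was no larger than its spread (1.03 ± 1.17, SD, n = 2). On chromosome 3 Slc25a24, with 3.54 and 3.26, starts 42.6 kb from Slc25a54, a less known member with 3.59 and 2.43. Slc25a24 starts in the 20-kb gap between TADs and Slc25a54 in the TAD of 880 kb just before it, and here too the difference (0.390 ± 0.621) lay within its spread.

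The mouse TADs had been called on the merged map of both pools. Of 2979 TADs listed, 36 held the start of a member. The members' TADs ran from 240 kb (Slc25a38) to 3920 kb (Slc25a39), with a median of 670 kb, against 540 kb for the 2835 TADs with any protein-coding start. Counted by gene rather than by TAD, the medians were 650 kb for the members and 680 kb for all genes in a TAD. The pairs that shared a TAD were Slc25a23 with Slc25a41 and Slc25a29 with Slc25a47, the latter in 340 kb. Mean index was above 0 in 31 of the 36 TADs, or 86.1%, against 64.1% of the TADs with any protein-coding start. The others were the TADs of Slc25a21 (-2.11), Slc25a40 (-1.40), Slc25a2 (-0.725), Slc25a13 (-0.217) and Slc25a37 (-0.0188), the last of which ends inside the flat stretch. In 23 TADs, 63.9%, every bin was above 0, against 44.8%. Nearly all members start in A, whereas the wider set also holds TADs whose starts lie in B. Both gaps therefore partly restate the calls at the gene starts. Among TADs with a mean above 0, every bin was above 0 in 23 of 31 with a member and in 1269 of 1816 with any protein-coding start.

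Some members started near the end of a TAD. The starts of 13 members, 30.2%, lay within 40 kb of the end of a TAD, against 19.6% of all genes, and the median distance to an end was 98.03 kb for the members and 142 kb for all genes. Of these members 5 (Slc25a15, Slc25a17, Slc25a24, Slc25a26 and Slc25a27) started in a 20-kb gap between 2 TADs. Thus 5 of the 43 members started in no listed TAD, against 6.12% of all genes. Slc25a27 was nearest to an end, at 1.90 kb, followed by Slc25a26 at 2.75 kb and Slc25a17 at 5.12 kb. The other 8 were Slc25a48, Slc25a38, Slc25a46, Slc25a30, Slc25a40, Slc25a54, Slc25a42 and Slc25a21. The difference in share rests on the width chosen and was not tested: within 20 kb the count was 6, or 14.0% against 12.2% of all genes, and within 100 kb 22, or 51.2% against 38.7%. TADs were called on a single map, so these positions have no replicate error.

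The proteins that work beside the carriers were in A as well. Of 31 listed genes for related proteins, other inner membrane transport, outer membrane pores and carrier import, 30 are autosomal, and all 30 were above 0 in both pools, with a median of 4.08, where the share over all genes was 75.6%. Lowest was Ucp1, the uncoupling protein of thermogenic fat, with 2.13 in pool 1 and 0.739 in pool 2, whereas its relatives Ucp2 and Ucp3 were at 5.36 and 5.60. Other thermogenic genes lay on both sides: Cidea (3.55) and Elovl3 (3.68) were above 0, and Dio2 (-1.99), an enzyme that activates thyroid hormone, and Ppargc1a (-1.36), a coactivator of mitochondrial genes, were below 0 in both pools. The carrier homologs Mtch1 and Mtch2 of the outer membrane had 4.09 and 6.77. The subunits of the pyruvate carrier, Mpc1 and Mpc2, which belong to another family, had 2.45 and 3.89, and the calcium uniporter Mcu had 3.51. The outer membrane pores Vdac1, Vdac2 and Vdac3 had 3.61, 4.85 and 4.89. Of the 8 import genes the highest was Tomm40, the pore through which carriers enter, at 8.50, and Timm22, which inserts them into the inner membrane, was at 4.03.

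**Figure D4:**
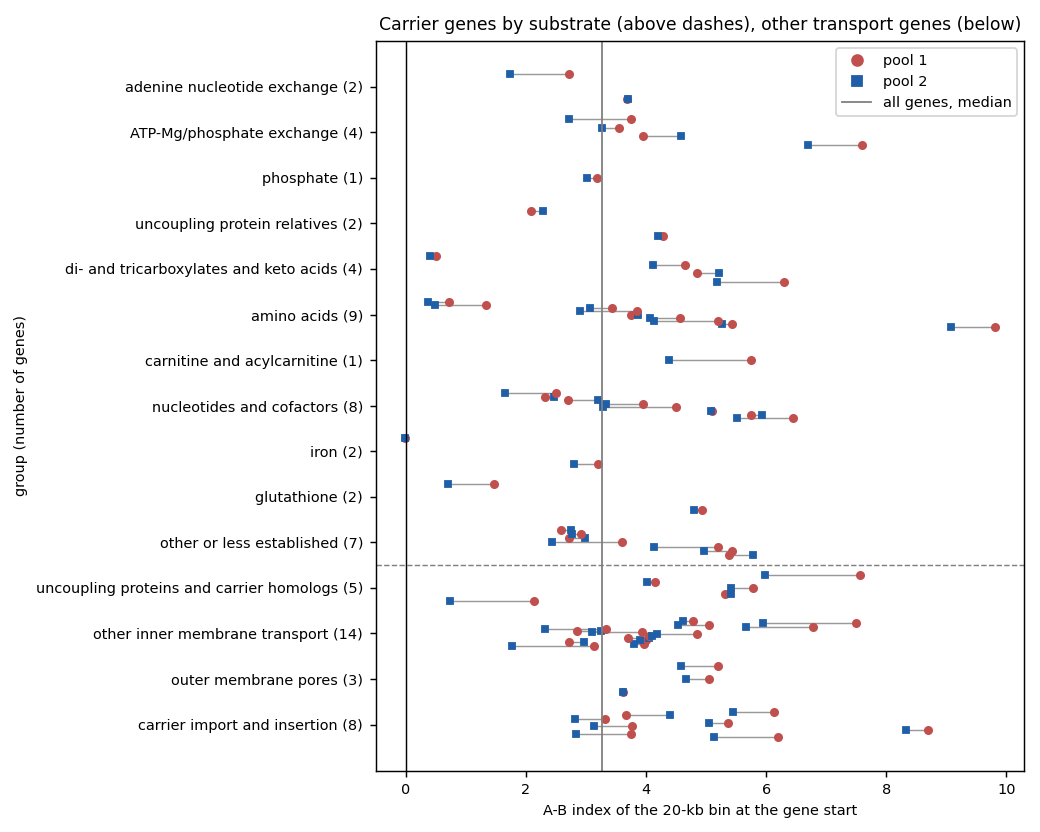
A-B index of the start bin (horizontal axis, no unit) in pool 1 (circles) and pool 2 (squares) for carrier genes by substrate (1 is not drawn), above the dashed line, and for other mitochondrial transport genes below it; the grey line is the median of all genes (3.26). Amino acid carriers span 0.543 to 9.44, and the 30 other transport genes are above 0 in both pools, with Ucp1 the lowest at 1.43.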

How the data were processed

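Mitochondrial carrier genes were read in 2 Hi-C libraries of mouse iWAT. The authors aligned the reads to GRCm39 in Juicer with BWA, dropped pairs with a mapping quality under 30, normalized the contact maps, and set coarse A and B regions per chromosome at 100 kb. The deposited values were scores, 1 A-B index for each pool and bin of 20 kb, and the ends of TADs, found by insulation score on the merged map. The 18 sheep samples were not used.

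Here each gene start of GRCm39 (GENCODE M39) was given the score of its bin; the last bins matched the GRCm39 length of all 19 autosomes. Bins were called flat when a neighbour differed by under 0.005 and the value was within 0.5 of 0 in both pools. Lookups were tested on simulated data. Python 3.11.15, pandas 2.3.3, pysam 0.24.0 and minimap2 2.31 were used. Depth per bin is unknown. No test was run, since the design has 1 condition. Counts and medians cover all members, 1 of which is not reported here by itself. The others are named. Values per pool are given for the highest of them, those near or below 0 and the tissue-restricted list. Several other members, and most genes of the other lists, have only a mean, a difference or a range. The members and lists were chosen with earlier results of these data known.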

Additional observations from a re-analysis of the deposited data

How the results depend on the processing

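The number of members in A in both pools stayed between 40 and 43 under every alternative tried. None was in B in both pools after subtracting the chromosome's median (0), after quantile normalization (0) and, in an alternative chosen after seeing the data, without flat bins (0). Members of opposite sign numbered 2 over 60 kb, 1 over 100 kb, 1 over the gene body and 1 after quantile normalization. The median index was 3.53 to 3.75 under the alternatives that used both pools on their own scale, 4.16 after subtracting the chromosome's median, and 3.34 to 3.84 with a single pool left. Over 100 kb the sign turned for Slc25a40 (-0.273), Slc25a2 (-0.389) and Slc25a37 (0.731), over the gene body for Slc25a40 (-0.149), Slc25a21 (-2.26) and Slc25a37 (1.58), and after subtracting the chromosome's median for Slc25a37 (0.583). The turns of Slc25a37 rest wholly or partly on flat bins and are not changes of a measured sign. Slc25a37 was also the member of opposite sign after quantile normalization, and only the alternative without flat bins leaves it out of the counts. Members within reach of a TAD end numbered 6 at 20 kb and 22 at 100 kb. Whole genes fitted in 31 TADs. Leaving out a pool changed no sign. No paired analysis was possible because the libraries form a single group. The unknown depth per bin and 2 pools limit all values.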
